A study of Mus musculus with 10 samples.

Results

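Of the 23923 genes in the deposited count table for mouse dorsal root ganglia, 86 were taken as nuclear-encoded oxidative phosphorylation genes, chosen by symbol alone. The symbols were those of the Nduf subunit series, Sdha to Sdhd, the Uqcr series, Cox4 to Cox8 subunits and the Atp5 series, with 10 names ending in a pseudogene tag (-ps) left out. By complex, 37 belong to complex I, 4 to complex II, 8 to complex III, 20 to complex IV and 17 to ATP synthase (complex V). The dorsal root ganglion holds the cell bodies of sensory neurons with their satellite glia and Schwann cells. The tested samples, Kif2a_cKO, were 5 libraries from animals with the genotype Kif2a fl/fl; Avil cre, in which cre recombinase is under the control of Avil, which sensory neurons express. The control samples were 5 libraries with the Kif2a fl/fl alleles and no cre. All were taken at 1 month of age and sequenced as polyadenylated RNA from whole ganglia. Kif2a encodes a kinesin-13 motor protein that depolymerizes microtubule ends. The floxed alleles are shared by both groups, and the presence of cre cannot be told apart from the loss of Kif2a. Whether each library came from its own animal is not in the labels, and p-values therefore measure library-to-library spread, which may be technical.

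Oxidative phosphorylation makes most of the ATP of a neuron. Complexes I and II pass electrons from NADH and succinate to ubiquinone, complex III passes them to cytochrome c, and complex IV hands them to oxygen. Complexes I, III and IV pump protons across the inner mitochondrial membrane, and ATP synthase lets them flow back to make ATP. A few core subunits are encoded in mitochondrial DNA, and the nuclear genes described here supply most of the rest. The factors NRF1, NRF2 (an ETS factor, GABP), YY1 and the estrogen-related receptors are known to bind the promoters of many of these genes. Sensory neurons have axons that depend on mitochondria carried along microtubules.

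Sequences before the annotated starts are shown because the members are often described as one set under shared factors, and these 5 show windows with a searched motif and 1 printed stretch, that of Cox8b, without any. Each is the 250 bases before the RefSeq start on GRCm38.p6, written in the direction of the gene, and capitals mark letters of the searched motifs. Cox6a1, the common isoform of subunit 6a of complex IV, is from chr5:115348959-115349208 on the minus strand. Sdhb, the iron-sulfur subunit of complex II, is from chr4:140961021-140961270 on the plus strand. Ndufa11, a complex I membrane arm subunit, is from chr17:56717512-56717761 on the plus strand. Uqcrh, the hinge protein of complex III, is from chr4:116075071-116075320 on the minus strand. Cox8b, the muscle isoform of subunit 8 of complex IV, is from chr7:140900447-140900696 on the minus strand.
Cox6a1: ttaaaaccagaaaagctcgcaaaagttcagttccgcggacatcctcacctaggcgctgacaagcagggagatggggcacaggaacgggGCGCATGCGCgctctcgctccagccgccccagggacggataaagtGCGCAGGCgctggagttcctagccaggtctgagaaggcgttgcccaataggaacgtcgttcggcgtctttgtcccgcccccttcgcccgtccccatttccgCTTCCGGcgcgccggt
Sdhb: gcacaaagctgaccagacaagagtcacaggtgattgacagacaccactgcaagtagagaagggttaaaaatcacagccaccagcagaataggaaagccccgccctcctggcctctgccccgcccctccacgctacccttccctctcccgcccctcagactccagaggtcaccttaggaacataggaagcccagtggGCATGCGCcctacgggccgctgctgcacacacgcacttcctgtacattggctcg
Ndufa11: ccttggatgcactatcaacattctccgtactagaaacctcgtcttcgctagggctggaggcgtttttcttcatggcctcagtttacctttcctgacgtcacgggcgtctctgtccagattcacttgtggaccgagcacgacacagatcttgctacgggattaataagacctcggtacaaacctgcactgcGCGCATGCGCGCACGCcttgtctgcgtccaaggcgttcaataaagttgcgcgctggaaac
Uqcrh: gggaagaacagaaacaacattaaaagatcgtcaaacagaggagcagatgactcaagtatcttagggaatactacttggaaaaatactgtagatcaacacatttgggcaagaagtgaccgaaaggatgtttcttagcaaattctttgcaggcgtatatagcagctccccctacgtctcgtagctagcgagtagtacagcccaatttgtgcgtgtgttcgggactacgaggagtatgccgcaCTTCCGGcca
Cox8b: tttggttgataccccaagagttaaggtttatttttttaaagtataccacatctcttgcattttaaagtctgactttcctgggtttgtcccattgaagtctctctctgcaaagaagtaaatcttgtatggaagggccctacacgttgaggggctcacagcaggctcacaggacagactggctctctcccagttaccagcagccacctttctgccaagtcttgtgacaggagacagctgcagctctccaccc
The Cox6a1 window holds GCGCATGC, the NRF1 core, 162 bases before the start, overlapped by the core in reverse, GCATGCGC, from 160 bases before it, and GCGCAGGC, which matches GCGCANGC, 117 bases before it. It also holds CTTCCGG, the reverse complement of the ETS motif CCGGAAG, 16 bases before the start. The printed Sdhb stretch holds the reversed core alone, 54 bases before the start, and Sdhb also has the ETS motif in letters not printed. Ndufa11 holds GCGCATGC, GCATGCGC and GCGCACGC in a single overlapping run, 60, 58 and 52 bases before the start. Uqcrh holds CTTCCGG 10 bases before the start. The Cox8b stretch has no capitals, which says only that these letters are not in it, and the part of its window after the start, not printed, holds TATAAA.

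RefSeq promoter windows, 250 bases before to 50 after a start, were found for 68 of the 86 members, giving 73 windows, and each motif was searched on both strands. The NRF1 core GCGCATGC was in 13.7% of member windows and in 2.71% of all 32851 windows. Its looser form GCGCANGC, which includes the core, was in 32.9% of member windows and in 9.95% of all windows. The ETS motif CCGGAAG was in 23.3% of member windows and in 8.86% of all, and the YY1 motif AAGATGGC in 13.7% against 2.75%. At least 1 of GCGCANGC, CCGGAAG and AAGATGGC was in 56.2% of member windows and in 19% of all windows. Among the 21262 windows of protein-coding genes the shares were 24.3% for that trio and 3.51% for the NRF1 core. The estrogen-related receptor motif AAGGTCA was in 11% of member windows and in 4.72% of all, and TATAAA in 12.3% and 13.6%. These are counts of letters and not of bound sites.

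Library totals ran from 28686616 to 73031457 counts in Kif2a_cKO and from 17506135 to 34500320 in controls. Kif2a averaged 69.0 ± 4.44 CPM (TMM-scaled counts per 1000000) in Kif2a_cKO and 70.2 ± 8.61 CPM in the control group (SD, n = 5 each; edgeR adjusted p = 0.986). Counts over a whole gene do not show single exons, and none were examined. Sensory neuron markers were abundant in all 10 libraries, with sums of 22164 to 27179 CPM in Kif2a_cKO and 16492 to 26416 CPM in control libraries. Of these 16 markers, 14 had a log2 fold change above 0 (median 0.144), 0 of them with an unadjusted p under 0.05. Among the 2 below 0, Avil stood at -0.82 (SE 0.156, edgeR adjusted p = 0.351). It alone had an unadjusted edgeR p under 0.05, and 0 of the 16 were called. Myelinating Schwann cell markers summed to 21509 to 33935 CPM in Kif2a_cKO and 29735 to 39952 CPM in control libraries. All 12 of them had a log2 fold change below 0 (median -0.31), 7 with an unadjusted p under 0.05 and 0 called by edgeR, beside 4.01% of all tested genes lower at that unadjusted p. Spinal cord markers varied most, from 47.4 to 324.8 CPM in Kif2a_cKO and from 73.5 to 2310 CPM in control libraries. The highest sums were those of controls 1, 3 and 5, at 769.8, 2310 and 750.9 CPM. All 12 spinal cord markers tested lay below 0, 4 with an unadjusted p under 0.05 and 0 called by edgeR. The part of these cell types in the members' values was not tested. Libraries with the number 5 in both groups stood apart for skeletal muscle markers, described with the isoforms. In bulk tissue, fewer cells of a type and less RNA per cell cannot be told apart.

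Levels were compared between genes as CPM per kilobase of transcript. The most abundant member was Cox6a1, at 873 ± 22.6 CPM per kb in Kif2a_cKO and 866 ± 39.4 CPM per kb in the control group (SD, n = 5 each, here and in the levels that follow). Atp5b, the catalytic beta subunit of ATP synthase, had 719 ± 33.3 CPM per kb in Kif2a_cKO and 696 ± 18.2 CPM per kb in controls. Cox8a, the common subunit 8 of complex IV, had 685 ± 43.1 CPM per kb in Kif2a_cKO and 668 ± 46.6 CPM per kb in controls. The levels of Atp5b and Cox8a overlap within their spread, and Cox6a1 lies above both in each group. Ndufa4, a subunit first placed in complex I and now counted with complex IV, had 616 ± 91.1 CPM per kb in Kif2a_cKO and 538 ± 48.0 CPM per kb in controls. In complex III, Uqcrq, a small ubiquinol-binding subunit, stood at 541 ± 54.0 CPM per kb in Kif2a_cKO and 479 ± 27.6 CPM per kb in controls. Uqcrh had 324 ± 52.1 CPM per kb in Kif2a_cKO and 289 ± 31.7 CPM per kb in controls. Atp5mpl, a small accessory subunit of ATP synthase, had 410 ± 62.0 CPM per kb in Kif2a_cKO and 355 ± 42.0 CPM per kb in controls. The alpha subunit Atp5a1, which alternates with the beta subunit in the head of the enzyme, had 352 ± 14.4 CPM per kb in Kif2a_cKO and 342 ± 6.14 CPM per kb in controls.

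Complexes I and II were lower per length. The most abundant complex I members were Ndufb8, a membrane arm subunit, with 298 ± 10.3 CPM per kb in Kif2a_cKO and 281 ± 20.3 CPM per kb in controls, and Ndufa11, with 186 ± 16.3 CPM per kb in Kif2a_cKO and 172 ± 22.8 CPM per kb in controls. Sdhb led complex II with 152 ± 14.1 CPM per kb in Kif2a_cKO and 144 ± 7.20 CPM per kb in controls. The membrane anchor Sdhd followed with 109 ± 14.5 CPM per kb in Kif2a_cKO and 98.3 ± 5.10 CPM per kb in controls. Over all 10 libraries the median member of complex I lay at 110.1 CPM per kb, of complex II at 98.0, of complex III at 181, of complex IV at 132.7 and of ATP synthase at 234.8. These medians count every matched symbol. Complex IV includes low-count minor isoforms and the processed pseudogene Cox6c2, and its median lies below most of its common subunits. Complex I includes the processed pseudogenes Ndufs6b and Ndufb4c.

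Some members have annotated copies elsewhere in the genome. Atp5l, the g subunit in the membrane part of ATP synthase, had 1.85 ± 0.297 CPM in Kif2a_cKO and 1.75 ± 0.281 CPM in control libraries. GENCODE lists 8 pseudogenes that match Atp5l at 95% identity or more over at least 50% of its transcript, the most of any member. Ndufs5, a complex I subunit, had 16.5 ± 2.07 CPM in Kif2a_cKO and 16.1 ± 2.63 CPM in control libraries and has 1 such copy. Of the 86 members, 74 have no such copy, with a median of 127 CPM over all 10 libraries. Their levels ran from 0.053 CPM for Ndufb4c to 1355 CPM for Atp5b. The 12 members with at least 1 copy ran from 1.80 CPM for Atp5l to 249.2 CPM for Atp5c1. Reads that fit several places can be dropped or split by the read counter, which the sources used here do not name, so the levels of these 12 are uncertain. Atp5h, with 3 copies, had 206.9 CPM, so a copy did not go with a low level in every case.

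No member passed the test between Kif2a_cKO and controls. Of the 82 members that passed the filter on low counts, 0 were called higher and 0 lower by edgeR's quasi-likelihood test at an adjusted p under 0.05, and the lowest adjusted p was 0.703. Of all 17439 genes tested, 0.0172% were called higher and 0% lower. DESeq2 and limma-voom also called 0 members, where they called 0.0653% and 0.0172% of all genes higher and 0.104% and 0.00573% lower. At an unadjusted p under 0.05 edgeR gave 3 members higher and 0 lower, beside 2.97% and 4.01% of all genes. The authors' deposited table marks 31 genes past its thresholds, of which 0 are members, and its lowest false discovery rate for a member is 0.4375. A p that misses the threshold does not show that levels were equal.

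The 3 members with an unadjusted p under 0.05 are accessory subunits. Ndufb3, in the membrane arm of complex I, had 121, 114, 140, 138 and 165 CPM in Kif2a_cKO 1 to 5, and 100.2, 111, 121, 120 and 114 CPM in control libraries 1 to 5. The groups overlap, and the highest value is that of Kif2a_cKO 5. The log2 fold change of 0.26 (SE 0.0983) did not pass the test (edgeR adjusted p = 0.703) and was 0.17 without Kif2a_cKO 5. Ndufb4, of the same arm, had 19.5, 19.7, 22.5, 18.3 and 26.1 CPM in Kif2a_cKO and 16.1, 17.2, 19.8, 17.3 and 17.7 CPM in control libraries. Its log2 fold change of 0.27 (SE 0.101) did not pass either (edgeR adjusted p = 0.703) and was 0.17 without Kif2a_cKO 5. Uqcrq had 203, 202, 224, 213 and 255 CPM in Kif2a_cKO and 182, 194, 201, 208 and 184 CPM in control libraries. Here too the groups overlap, with a log2 fold change of 0.18 (SE 0.0799, edgeR adjusted p = 0.703), and 0.11 without Kif2a_cKO 5.

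Ndufv3, an accessory subunit beside the NADH-binding site of complex I, was the only member whose Kif2a_cKO libraries all lay above all controls. It had 158, 154, 157, 162 and 186 CPM in Kif2a_cKO and 141, 144, 149, 152 and 154 CPM in control libraries. The nearest libraries of the groups, Kif2a_cKO 2 and control 5, both round to 154 CPM. Its log2 fold change of 0.14 (SE 0.0696) did not pass the test (edgeR adjusted p = 0.707) and was 0.080 without Kif2a_cKO 5. Of all tested genes, 0.734% had every Kif2a_cKO library above every control and 0.436% every one below, beside 1 and 0 of the 82 members. Cox7a2l, which joins complexes III and IV into supercomplexes, had the next lowest p, with 84.6 ± 7.95 CPM in Kif2a_cKO and 76.7 ± 1.53 CPM in control libraries (edgeR adjusted p = 0.709).

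On the lower side, 5 tested members had a log2 fold change below 0. Cox6b2, the testis isoform of subunit 6b, had 3.29, 2.50, 2.12, 3.58 and 4.55 CPM in Kif2a_cKO and 2.88, 2.69, 5.10, 4.90 and 3.78 CPM in control libraries, with a log2 fold change of -0.26 (SE 0.239, edgeR adjusted p = 0.855), -0.43 without Kif2a_cKO 5 and -0.43 without replicate 5 of both groups. The groups overlap over most of their range. Uqcrc1, a core protein of complex III, had 255 ± 35.8 CPM in Kif2a_cKO and 262 ± 16.5 CPM in control libraries. Sdhc, the other membrane anchor of complex II, had 131 ± 19.0 CPM in Kif2a_cKO and 134 ± 18.9 CPM in control libraries. Nearest to no difference among members over 100 CPM were Sdha, the flavin subunit of complex II, at 268 ± 16.7 CPM in Kif2a_cKO and 267 ± 12.8 CPM in control libraries, and Cox4i1, the common subunit 4 of complex IV, at 334 ± 11.2 CPM in Kif2a_cKO and 331 ± 27.4 CPM in control libraries. Cox5a, which binds Cox4i1 in complex IV, had 94.9 ± 5.76 CPM in Kif2a_cKO and 94.99 ± 5.15 CPM in control libraries.

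Although none was called, 77 of the 82 tested members had a log2 fold change above 0, beside 52.1% of all tested genes. The median log2 fold change was 0.106 over the members and 0.007 over all genes. It was 0.109 in complex I (34 of 35 above 0), 0.040 in complex II (3 of 4), 0.10 in complex III (7 of 8), 0.150 in complex IV (16 of 18) and 0.101 in ATP synthase (17 of 17). Without Kif2a_cKO 5 these medians were 0.039, 0.0094, 0.040, 0.042 and 0.038, in the same order of complexes. Within complex I the 7 core subunits counted had a median of 0.073 and the 28 others 0.114. Without Kif2a_cKO 5 the order turned, with 0.044 for the core subunits and 0.035 for the others. Within ATP synthase the 5 subunits of the F1 head had a median of 0.047, the 4 of the peripheral stalk 0.113 and the 3 genes of the c ring 0.052. Without Kif2a_cKO 5 they had 0.035, 0.038 and 0.049. The members run from -0.26 for Cox6b2 to 0.50 for Cox7b. Members share their libraries, so these counts describe 10 libraries and not 82 independent values.

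**Figure D1:**
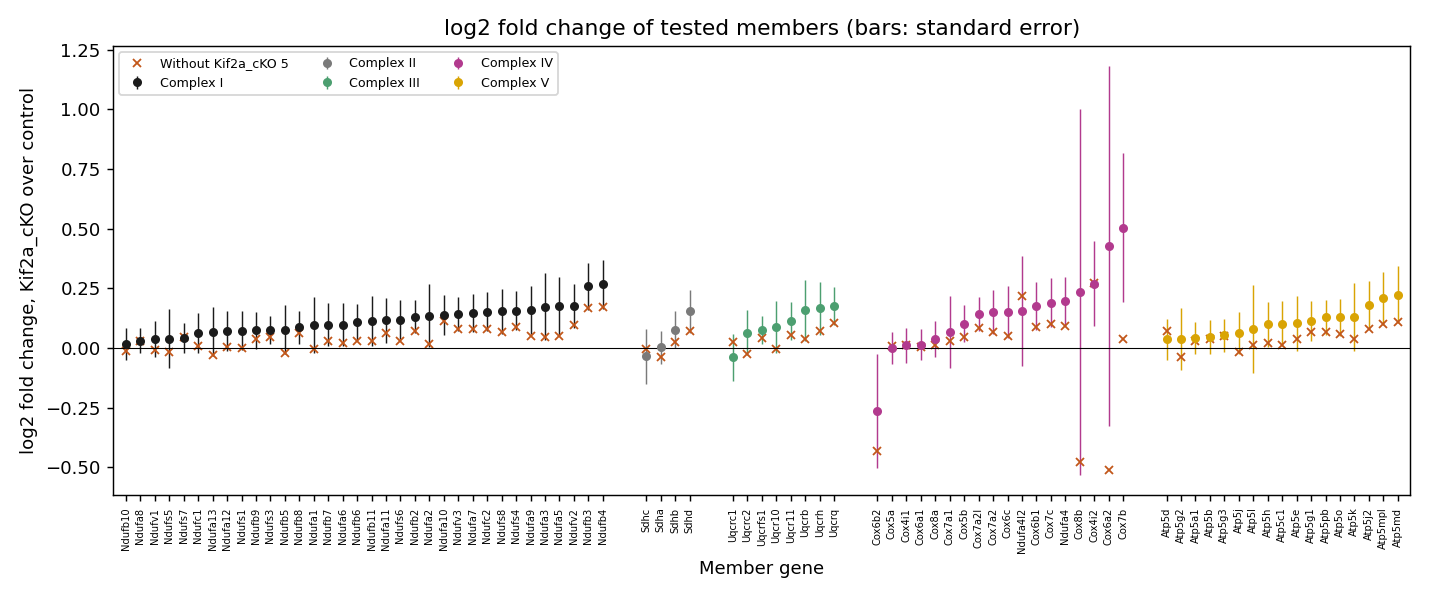
The log2 fold change of Kif2a_cKO over control is plotted for 81 of the 82 tested members, grouped by complex, as circles with standard errors from edgeR, and crosses give the value without Kif2a_cKO 5. Most circles lie just above 0 (77 of all 82 tested, median 0.106), and most crosses lie closer to 0 (66 of all 82 above it, median 0.038). Cox7b goes to 0.04 without that library. The low-count Cox6a2, Cox8b and Cox6b2 move away from 0, to -0.51, -0.48 and -0.43.

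The shift was not spread evenly over the Kif2a_cKO libraries. The mean deviation of the 82 members from their 10-library mean was -0.060, -0.056, 0.052, 0.037 and 0.290 (log2 CPM) in Kif2a_cKO 1 to 5, and -0.131, -0.061, 0.067, -0.033 and -0.105 in controls 1 to 5. Kif2a_cKO 5 is the high library, and the other 4 lie within the range of the controls. The group means were 0.053 ± 0.142 in Kif2a_cKO and -0.053 ± 0.077 in the control group (SD, n = 5 each), a difference of 0.105, and of 0.046 without Kif2a_cKO 5. With libraries scaled by their totals alone, the difference was 0.071, and -0.005 without Kif2a_cKO 5. That scaling moved the median of all genes to -0.027. Kif2a_cKO 5 held the highest value for 60 of the 82 members (73.2%), and for 20.0% of all tested genes. Members together made up 1.26%, 1.21%, 1.28%, 1.35% and 1.57% of the counts in Kif2a_cKO 1 to 5, and 1.23%, 1.24%, 1.35%, 1.28% and 1.28% in controls. Without Kif2a_cKO 5, 66 of 82 members had a log2 fold change above 0, and their median was 0.038.

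**Figure D2:**
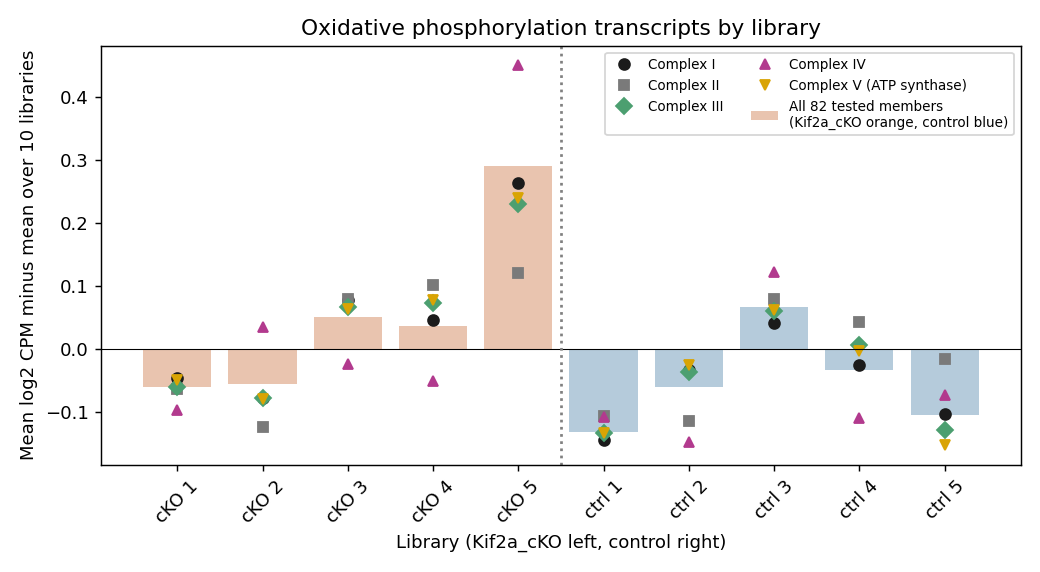
Bars give the mean log2 CPM of the 82 tested members in each library minus their mean over all 10 libraries, with Kif2a_cKO on the left and controls on the right, and symbols give the same for each complex. Kif2a_cKO 5 stands at 0.290, with complex IV at 0.451, while the other 9 bars lie between -0.131 and 0.067.

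By complex, the deviation of Kif2a_cKO 5 was 0.264 for complex I, 0.120 for complex II, 0.231 for complex III, 0.451 for complex IV and 0.241 for ATP synthase. Complex II stood least apart in that library, with Kif2a_cKO 4 at 0.102. The value for complex IV rested on 3 genes, Cox7b and the low-count muscle isoforms Cox6a2 and Cox8b: over the other 15 it was 0.190 in Kif2a_cKO 5, beside 0.144 in control 3. Without these 3 genes, the deviation of the remaining 79 members was 0.234 in Kif2a_cKO 5, and -0.080 to 0.077 in the other Kif2a_cKO libraries and -0.131 to 0.069 in controls. Several abundant members showed the step plainly. Atp5mpl had 136, 138, 146, 141 and 190 CPM in Kif2a_cKO and 124, 143, 143, 134 and 106 CPM in control libraries. Ndufa4 had 335, 333, 368, 374 and 469 CPM in Kif2a_cKO and 307, 359, 358, 323 and 294 CPM in control libraries. Atp5md, a small membrane subunit of ATP synthase, had 77.6, 88.3, 95.2, 88.2 and 120 CPM in Kif2a_cKO and 76.2, 85.1, 96.2, 77.4 and 67.5 CPM in control libraries. In each of these 3 the highest library is Kif2a_cKO 5 and the lowest is control 5. The abundant Cox6a1 did not follow, with 481, 498, 517, 503 and 495 CPM in Kif2a_cKO and 485, 524, 494, 505 and 464 CPM in control libraries. Nor did Atp5b, at 1363, 1368, 1301, 1478 and 1377 CPM in Kif2a_cKO and 1301, 1338, 1301, 1342 and 1385 CPM in control libraries.

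Most members have short transcripts, and the median over other short transcripts had the same sign. The median length was 729.5 bases over the tested members and 2642 bases over all tested genes. Among genes under 1000 bases, the 56 members had a median log2 fold change of 0.115, and the 1977 other genes 0.072, with 64.0% of those others above 0. From 1000 to 2500 bases the 23 members had 0.076 and the 6023 others 0.024. Above 2500 bases the 3 members had 0.004 and the 9243 others -0.012. Without Kif2a_cKO 5 the members under 1000 bases had a median of 0.045 and the other genes of that length 0.028. After a trend on transcript length and GC content over all genes was removed, 63 of 82 members lay above 0 with a median of 0.038. What part length has in the shift of the members was not tested.

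**Figure D3:**
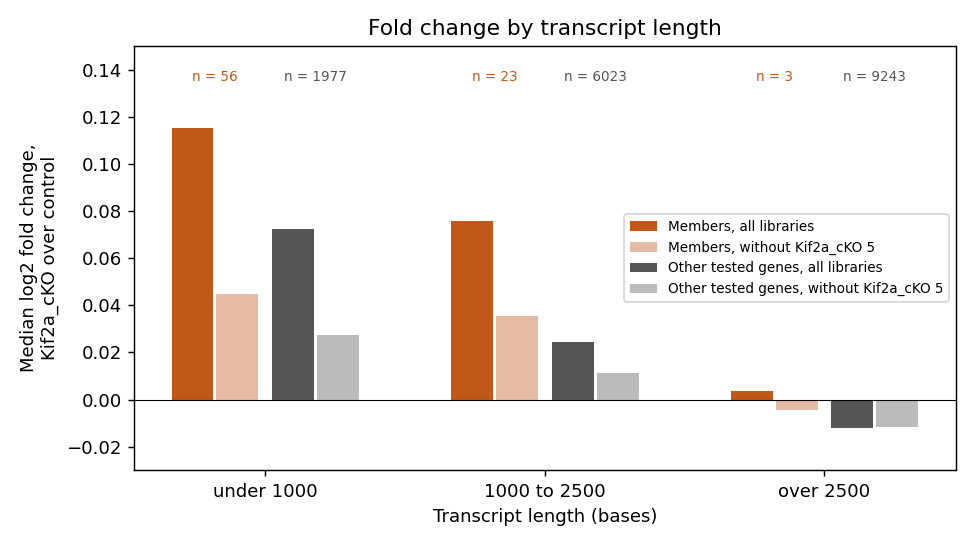
Bars give the median log2 fold change of Kif2a_cKO over control for members (orange) and other tested genes (grey) in 3 classes of transcript length in bases, with all libraries (full colour) and without Kif2a_cKO 5 (pale). Members and other genes both step down with length, from 0.115 and 0.072 under 1000 bases, and both are smaller without Kif2a_cKO 5.

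Cox7b, an accessory subunit of complex IV that was picked out after its values were seen, had the highest log2 fold change of any member, and it rested on a single library. It lies on chromosome X (GRCm38, chrX:106015700-106022450, plus strand). It had 199, 209, 204, 225 and 599 CPM in Kif2a_cKO 1 to 5, and 186, 228, 226, 203 and 170 CPM in control libraries 1 to 5. Kif2a_cKO 5 was 2.94 times the median of the other 9 libraries, among which the groups overlap. The log2 fold change of 0.50 had an SE of 0.312 (edgeR adjusted p = 0.751) and was 0.04 without Kif2a_cKO 5. The neighbouring genes showed the same library. Magt1, which starts next to Cox7b on the other strand and encodes a magnesium transporter and oligosaccharyltransferase subunit, had 90.6 CPM in Kif2a_cKO 5 and 40.1 to 49.0 CPM in the other 9 libraries, 2.11 times their median. Atp7a, the copper-exporting ATPase that starts just after Cox7b, had 12.98 CPM there and 4.22 to 7.93 CPM in the others, 2.19 times their median. Farther out the ratio was 1.75 for Tlr13, 1.35 for Taf9b, 1.30 for Atrx and 1.24 for Pgk1.

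Among the 10758 genes with a mean log2 CPM over 3, Cox7b and Magt1 ranked 1 and 2 by the gap between Kif2a_cKO 5 and the highest other library, with gaps of 1.40 and 0.89 in log2 CPM. Atp7a, below that level, had a gap of 0.71. The window searched reached 300000 bases to each side of Cox7b and held 9 genes. What makes this stretch high in that library was not tested.

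**Figure D4:**
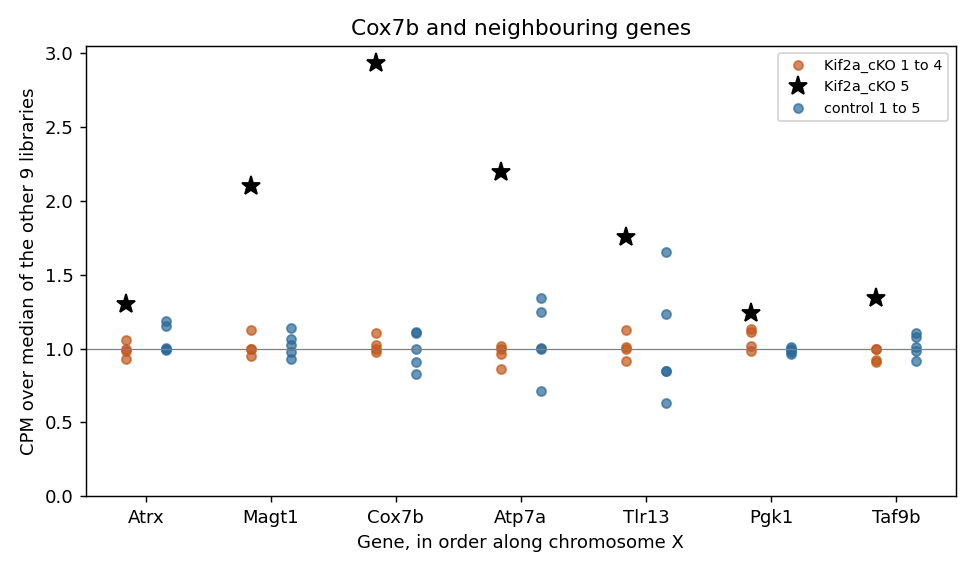
CPM of Cox7b and 6 neighbouring genes on chromosome X, in their order along the chromosome, is plotted over the median of the 9 libraries other than Kif2a_cKO 5, with Kif2a_cKO at the left of each gene and controls at the right. Kif2a_cKO 5 (star) stands at 2.94 for Cox7b, 2.19 for Atp7a and 2.11 for Magt1, and nearer 1 for the outer genes.

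Several complex IV subunits come as pairs of isoforms, 1 found in most tissues and 1 in muscle, lung, testis or vessel walls. The ganglia held mainly the common ones, as shares of counts per kilobase. Cox7a1, the heart and muscle isoform, made up 3.82 ± 0.459% of Cox7a1 and Cox7a2 together in Kif2a_cKO and 4.01 ± 0.614% in the control group (SD, n = 5 each, here and below). Cox6b2 made up 1.40 ± 0.314% of the 6b pair in Kif2a_cKO and 1.89 ± 0.427% in controls (two-sided exact permutation p = 0.0714, adjusted over 8 shares 0.318). Cox4i2, the isoform of lung and hypoxic cells, made up 0.781 ± 0.0972% of the Cox4 pair in Kif2a_cKO and 0.648 ± 0.102% in controls (exact permutation p = 0.0794, adjusted 0.318). Ndufa4l2, a hypoxia-induced relative of Ndufa4 that is known from pericytes, made up 0.330 ± 0.104% of its pair in Kif2a_cKO and 0.329 ± 0.0750% in controls. None of the 8 shares passed the exact permutation test (adjusted p from 0.318 to 0.992), and the smallest p that 5 against 5 libraries can give is 0.00794.

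The c ring of ATP synthase is coded by 3 genes whose mature proteins are identical. Atp5g3 made up 52.3 ± 2.37% of their counts per kilobase in Kif2a_cKO and 53.1 ± 2.95% in controls. Atp5g1 made up 43.5 ± 2.23% in Kif2a_cKO and 42.5 ± 3.23% in controls, and Atp5g2 made up 4.23 ± 0.445% in Kif2a_cKO and 4.36 ± 0.492% in controls. The order Atp5g3, Atp5g1, Atp5g2 held for the group means in both, and Atp5g2 has 2 pseudogene copies that may take reads from it.

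A muscle isoform was highest where muscle transcripts were highest. Cox6a2, the heart and skeletal muscle isoform of subunit 6a, had 0.264, 0.693, 0.174, 0.332 and 2.06 CPM in Kif2a_cKO and 0.171, 0.358, 0.236, 0.285 and 1.44 CPM in control libraries. The 2 high libraries are number 5 of each group. They are also the 2 highest for the summed skeletal muscle markers, with 355.6 CPM in Kif2a_cKO 5 and 262.3 CPM in control 5 beside 95.1 to 115.3 CPM in the others. The largest single part of those sums is Pvalb, which proprioceptive neurons also express, at 147.9 CPM in Kif2a_cKO 5 and 111.5 CPM in control 5. Acta1, skeletal muscle actin, had 45.5 CPM in Kif2a_cKO 5 and 34.2 CPM in control 5, and 1.04 to 9.95 CPM in the other 8. All 11 measured markers of the list of 12 had counts in every library. Cox8b had 0.0881, 0.555, 0.104, 0.0692 and 0.809 CPM in Kif2a_cKO and 0.400, 0.0358, 0.384, 0.0570 and 0.322 CPM in control libraries, at 1 to 24 counts a library, and was not tested as a share. The mean deviation of the members was 0.290 in Kif2a_cKO 5 and -0.105 in control 5. Without replicate 5 of both groups, 54 of 80 members lay above 0 with a median of 0.034.

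**Figure D5:**
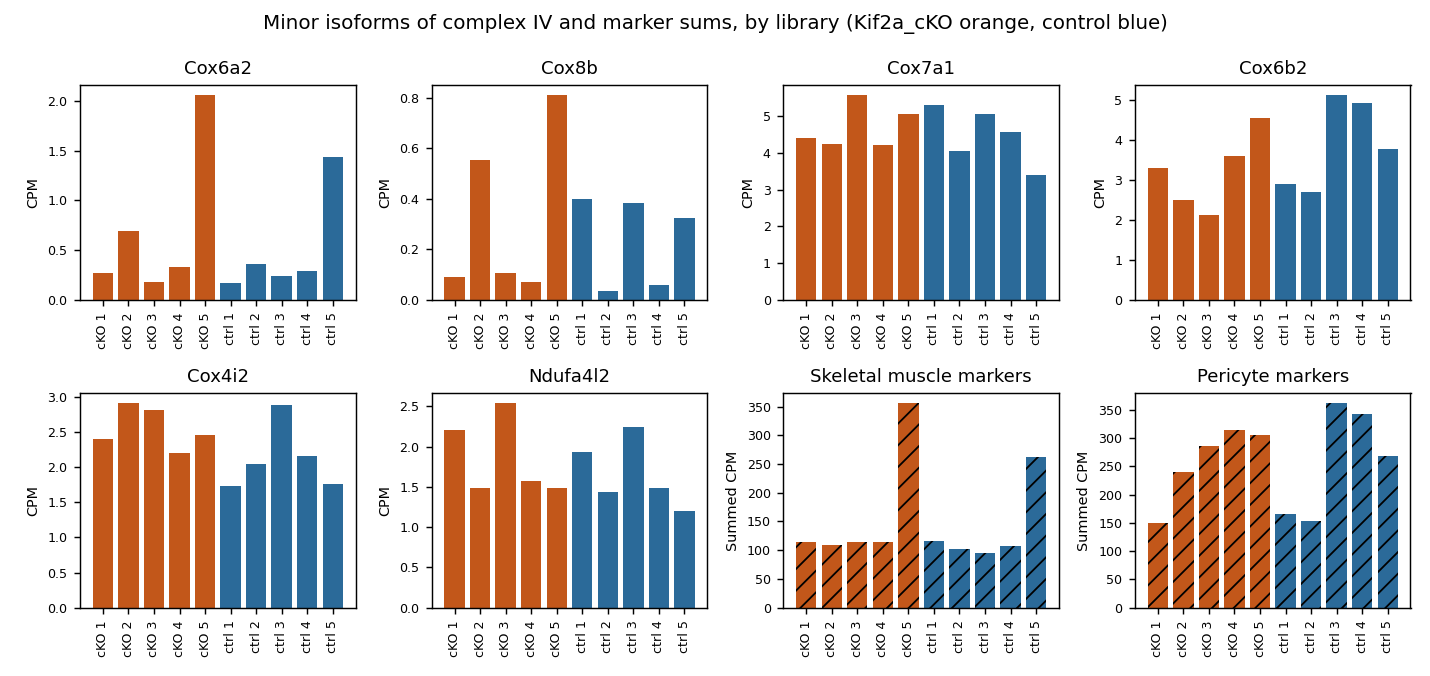
CPM of 6 minor isoforms and the summed CPM of skeletal muscle and pericyte markers is plotted in each library, with Kif2a_cKO (orange) left of control (blue). Cox6a2 and the muscle markers are highest in Kif2a_cKO 5 and control 5, whereas Cox7a1, Cox4i2 and Ndufa4l2 are highest in other libraries.

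Pericyte markers, a possible source of Cox4i2 and Ndufa4l2 transcripts, summed to 150.2 to 313.5 CPM in Kif2a_cKO and 153.4 to 361.2 CPM in control libraries. Cox4i2 had 2.41, 2.91, 2.82, 2.20 and 2.46 CPM in Kif2a_cKO and 1.74, 2.04, 2.89, 2.17 and 1.76 CPM in control libraries. Those groups overlap, and the part of pericyte number in them was not tested.

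The 4 remaining members did not pass the filter on low counts. Cox7b2, a testis isoform, had 0.144 ± 0.0658 CPM in Kif2a_cKO and 0.262 ± 0.148 CPM in control libraries. Ndufb4c, Ndufs6b and Cox6c2 are annotated as processed pseudogenes in GENCODE although their symbols match, and they stayed at or below 0.4 CPM in every library. Of the 10 names left out for a pseudogene tag, Ndufb1-ps is listed by RefSeq under the protein-coding complex I gene Ndufb1. It had 27.6, 28.2, 36.2, 33.8 and 46.5 CPM in Kif2a_cKO and 28.6, 32.1, 35.2, 32.5 and 22.4 CPM in control libraries (edgeR adjusted p = 0.819), again with Kif2a_cKO 5 highest and control 5 lowest.

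The genes around the members showed few differences. Of 45 measured assembly factors, which build the complexes and are not part of them, 37 lay above 0 in log2 fold change (median 0.088), and 0 were called. Of 18 genes for electron carriers, ubiquinone synthesis and subunits with other symbols (the carrier list), 12 lay above 0 with a median of 0.038. The 7 tested mitochondrially encoded transcripts all lay above 0 with a median of 0.160, and without Kif2a_cKO 3 the median was 0.0073 with 5 of 7 above 0. The first of them by fold change was mt-Co1, the catalytic subunit of complex IV, at 19690 ± 5095 CPM in Kif2a_cKO and 16339 ± 1666 CPM in control libraries (edgeR adjusted p = 0.741). Of 20 regulators of mitochondrial biogenesis, 9 lay above 0 with a median of -0.011. Ppargc1a, the coactivator that drives mitochondrial biogenesis, had 16.8 ± 1.33 CPM in Kif2a_cKO and 18.5 ± 1.56 CPM in control libraries (edgeR adjusted p = 0.734). Nrf1 had 14.4 ± 0.486 CPM in Kif2a_cKO and 13.9 ± 0.949 CPM in control libraries. Tfam, which packs mitochondrial DNA, had 20.4 ± 0.597 CPM in Kif2a_cKO and 19.7 ± 2.27 CPM in control libraries. Of 19 tricarboxylic acid cycle genes 14 lay above 0, and of 17 glycolysis genes 12, with medians of 0.053 in both. No gene of these 6 lists was called by edgeR, DESeq2 or limma-voom. At an unadjusted p under 0.05 edgeR gave 2 assembly factors, 2 genes of the carrier list and 1 glycolysis gene higher and 0 lower. Those 2 of the carrier list, Atpif1 and Coq3, are not electron carriers. Of all tested genes, 2.97% were higher and 4.01% lower at that p.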

How the data were processed

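Polyadenylated RNA of dorsal root ganglia was sequenced in 10 samples, 5 Kif2a_cKO and 5 control, grouped by the sample labels. The tools named in the submitters' processing notes are cutadapt, STAR and DESeq2, with the genome mm10. For the read counter, the annotation and strandedness, the sources used here give nothing. Raw counts per gene, as the authors deposited them, were the values tested. The authors also deposited a normalized signal (not used), a log2 fold change, a p-value and false discovery rate, and a yes or no flag at their thresholds, which are quoted by name.

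The main test was that of edgeR 4.0.16 in R 4.3.3 (filterByExpr with minimum count 10 and minimum total 15, TMM, quasi-likelihood test on the group, Benjamini-Hochberg over 17439 genes; 6484 were removed). Levels are TMM-scaled CPM, with a prior count of 2 on the log2 scale. CPM per kilobase used the shortest principal GENCODE transcript, and 98.55% of symbols matched. Isoform shares were set against each other by exact permutation, two-sided (scipy 1.17.1). Alternatives were DESeq2 1.42.0, limma-voom (limma 3.58.1), other scalings and filters, a looser threshold, a replicate block, a spinal cord covariate, removal of a length and GC trend (loess, span 0.5), libraries left out singly, and control replicates 1, 3 and 5 left out together. Leaving out replicate 5 of both groups was chosen after seeing the muscle markers. The code was tested on simulated data.

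The members and lists were chosen with earlier results of these data known. Members were named if called by any tool, among the 2 most abundant per complex, the 5 lowest p in each direction, isoforms, under the filter, or the 2 nearest 0 above 100 CPM. Cox7b, its neighbours, Atp5a1, Atp5l, Ndufs5, Ndufb1-ps, Atp5md and the named genes of the other lists were chosen after their values were seen. Library totals ran from 17506135 to 73031457, and errors are the spread over libraries of a group. Single-gene results of 1 member are not reported here.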

Additional observations from a re-analysis of the deposited data

Results flagged for a closer look

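A library was singled out where its gap to the nearest other library of its group exceeded 0.71 of the group's range. Of 106 groups of 5 values tested, 13 passed, and chance alone gives about 1 in 20 independent groups. These groups are not independent, since they share libraries and genes. Cox7b, its neighbours and Atp5l were put in after their values were seen. The 13 therefore cannot be set against that rate.

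In Kif2a_cKO 5, Cox7b stood at 599 CPM with the next library at 225 CPM, its neighbour Magt1 at 90.6 CPM with the next at 48.6 CPM, and Atp7a at 13 CPM with the next at 6.02 CPM. The same library was highest for Atp5mpl at 190 CPM (next 146 CPM) and Ndufv3 at 186 CPM (next 162 CPM). The mean deviation of complex IV was 0.451 in Kif2a_cKO 5 (log2 CPM, next 0.034; 0.190 over the 15 members other than Cox7b, Cox6a2 and Cox8b), and 0.122 in control 3 (next -0.073).

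Cox6a2 stood at 2.06 CPM in Kif2a_cKO 5 (next 0.693 CPM) and at 1.43 CPM in control 5 (next 0.358 CPM). Its share of Cox6a2 and Cox6a1 was 0.348% in Kif2a_cKO 5 (next 0.117%) and 0.259% in control 5 (next 0.0574%).

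On the low side, Atp5g3 stood at 180 CPM in control 5 (next 204 CPM) and Atp5l at 1.26 CPM in control 1 (next 1.79 CPM).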

How the results depend on the processing

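Under all 21 fits with a test, 0 members were called, with a lowest adjusted p of 0.445 (with the replicate block). Unadjusted p under 0.05 was reached by 0 to 12 members higher and by 0 lower. The 12, of 82 members, came without Kif2a_cKO 2, where 588 of all 17791 genes were higher and 592 lower. That fit keeps Kif2a_cKO 5. The median log2 fold change of the members stayed above 0, from 0.038 to 0.142 with a library left out and from 0.034 to 0.126 under the other settings. Across all genes, DESeq2 called 15 higher and 24 lower. The stricter filter, the replicate block, the spinal cord covariate, leaving out controls 1, 3 and 5, and leaving out replicate 5 of both groups each called 0 higher, and leaving out 1 library gave 0 to 3. Limma-voom and the spinal cord covariate called 1 lower, and leaving out 1 library gave 0 to 1. Deviations of same-numbered samples had r from -0.147 to 0.367, and 4 of 5 numbers correlated best with their own. Whether same-numbered samples share a source was not tested. The sample titles also give same-numbered libraries adjacent running numbers. The number was not taken as a pairing in the main test because number 4 had -0.147 and the labels give no shared litter or day. Whether same-numbered libraries are pairs is not stated. With the replicate block the members' median was 0.107.

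The median of the assembly factors was 0.023 with the length and GC trend removed, 0.040 without replicate 5 of both groups, and 0.041 to 0.099 with a library left out. That of the carrier list was -0.015 without replicate 5 of both groups and -0.0064 to 0.043 with a library left out. That of the mitochondrially encoded transcripts was 0.0073 to 0.246 with a library left out, lowest without Kif2a_cKO 3. That of glycolysis was 0.0075 to 0.104 with a library left out. The difference in the Cox7a1 share was 0.011 percentage points without controls 1, 3 and 5 and ran from -0.364 to 0.049 with a library left out. Over the same omissions it ran from -0.338 to 0.031 for Atp5g2, from -0.025 to 0.075 for Cox6a2 and from -0.029 to 0.032 for Ndufa4l2. The cause of these moves was not tested. Of 37 named members fitted, 17 changed the sign of an uncalled log2 fold change under some setting. Members with few counts, such as Cox8b, are limited by depth.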
